A study of Mus musculus with 6 samples.

Results

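The genes described here are 10 genes of the NRF2 antioxidant response, taken by symbol from the 16982 genes of the count table: the regulators Nfe2l2 and Keap1 and the enzyme genes Nqo1, Hmox1, Gclc, Gclm, Txnrd1, Srxn1, Gsr and Gpx1. All 10 passed the filter on low counts, which left 13386 genes, and they held between 126 and 5207 counts per library. RNA was sequenced from mouse embryonic fibroblasts (MEF) at day 3 of reprogramming, in 3 WT and 3 Rnf20 knockout libraries. The MEF had been infected with retroviruses that carry the factors KLF4, C-MYC, OCT4 and SOX2. Rnf20 encodes an E3 ligase that, with RNF40, places monoubiquitin on histone H2B. The knockout MEF carried floxed Rnf20 alleles and a ubiquitously expressed, tamoxifen-inducible Cre on a C57BL/6 background, and deletion was induced with 4-OH tamoxifen. The labels list all 6 cultures as untreated, and it is not stated whether WT cultures received the drug, so drug and genotype cannot be told apart. After infection the methods describe replating on growth-arrested MEF feeders, and the labels do not say whether feeder cells were in the harvested cultures. It is not stated whether the replicates came from separate animals or cultures, so p-values measure the spread between these libraries. The knockout libraries differed among themselves in Y-linked counts, as given below.

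NRF2, encoded by Nfe2l2, is a transcription factor that pairs with small MAF proteins at antioxidant response elements (ARE) and switches on genes that detoxify oxidants and electrophiles. In unstressed cells KEAP1 holds NRF2 and, as the adaptor of a CUL3 ubiquitin ligase, directs its destruction by the proteasome. Oxidants and electrophiles modify cysteines of KEAP1, so that newly made NRF2 escapes. NRF2 is therefore controlled largely at the protein level, which RNA-seq does not measure.

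Total counts per library ranged from 20545442 to 21746898. Rnf20 was at 107.1, 106.8 and 105.6 CPM (counts scaled by the TMM-normalized library size) in WT and at 18.7, 18.5 and 16.4 CPM in the knockout, a residual 16.8% of the WT mean. Its log2 fold change of knockout over WT was -2.57 (SE 0.081, adjusted p = 0.000163, edgeR quasi-likelihood test with Benjamini-Hochberg adjustment). Knockout replicate 3 stood apart: its counts differed from the other knockout libraries with a chi-square per gene of 92.4 and 101, against 6.04 to 8.92 between the other pairs of one genotype. Y-linked counts were taken as present where Ddx3y, Eif2s3y, Uty and Kdm5d summed to more than 1 CPM. By this rule they were present in the 3 WT libraries and knockout replicate 2 and not in knockout replicates 1 and 3. The fibroblast markers (9 of 9 tested) summed to 26877 to 29262 CPM in WT and to 26435, 32878 and 17585 CPM in knockout replicates 1 to 3, most of it from collagen genes. Of these 9 markers 2 fell and the other 7 did not pass, against 16.6% of all genes lower at an adjusted p under 0.05. Thy1 fell by 1.11 (adjusted p = 0.00251, edgeR quasi-likelihood test) and Pdgfra by 1.22 (adjusted p = 0.0185, same test) on the log2 scale. Each was lower in all 3 knockout libraries than in WT, as were 28.2% of all genes. The part of these differences in the values of the members was not tested. In bulk RNA, fewer cells of a type and less RNA per cell cannot be told apart.

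The DNA letters that NRF2 is known to bind were looked for first, because an ARE is what NRF2 target genes are known to share. The core of an ARE was searched as TGACNNNGC on both strands of RefSeq promoter windows (GRCm38.p6) that run from 250 bases before to 50 bases after a gene's start. Such windows were held for 7 members, with 9 windows because Txnrd1 has 3, and not for Hmox1, Gclc and Gsr. The core was present in 4 of the 9 windows, 1 each of Nfe2l2, Srxn1, Gclm and Txnrd1, against 12.4% of all 32851 windows. No match was present in the windows of Nqo1, Keap1 and Gpx1. The related AP-1 letters TGANTCA were present in 1 member window, that of Srxn1, against 7.81% of all windows, and no ARE match overlapped an AP-1 match. The matched stretches, 29 bases each and read 5′ to 3′ on the strand that holds the core, are shown with the core in capitals because they put the pathway's regulator and 3 of its targets side by side. The Nfe2l2 match lies 240 to 232 bases before the start site, the Gclm match 134 to 126 bases before it and the Txnrd1 match 92 to 84 bases before the start of its second window, whereas the Srxn1 match lies 29 to 37 bases after the start. A match describes letters, not a bound site. Letters outside these windows were not searched, so a window without a match does not show that a gene lacks an ARE.
Nfe2l2 (chr2:75704885-75704913, minus strand, the strand of the gene): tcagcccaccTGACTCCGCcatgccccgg
Srxn1 (chr2:152105542-152105570, minus strand, opposite to the gene): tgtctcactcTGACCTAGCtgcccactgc
Gclm (chr3:122245413-122245441, minus strand, opposite to the gene): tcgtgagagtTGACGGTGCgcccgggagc
Txnrd1 (chr10:82859104-82859132, minus strand, opposite to the gene): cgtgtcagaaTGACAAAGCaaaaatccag

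To ask whether loss of Rnf20 changed these genes on day 3, WT and knockout libraries were compared for each by the quasi-likelihood test of edgeR over all 13386 genes, and a gene passed at a Benjamini-Hochberg adjusted p under 0.05. Hmox1 and Txnrd1 rose, Keap1 fell, and 7 of the 10 members did not pass. The background was high: of all genes tested 16.4% were higher and 16.6% lower at this threshold, and 2 higher and 1 lower of the 10 members are close to it. Without knockout replicate 3, 4 members passed, 3 higher and 1 lower, Srxn1 being the one added, and 48.1% of all genes passed in either direction. When counts were scaled by library size only, the split of all calls moved from 49.7% higher and 50.3% lower to 39.5% and 60.5%. The study's own thresholds ask for a log2 fold change beyond 1 in either direction, an adjusted p below 0.01 and an FPKM (fragments per kilobase of transcript, scaled by library total) above 1, the last read here as the mean of at least 1 genotype. Under these, Hmox1 was called, against 1.50% of all genes called higher and 2.08% called lower. All 3 knockout libraries lay above all 3 WT libraries for 4 members, Hmox1, Txnrd1, Nfe2l2 and Srxn1, and below them for 1, Keap1, against 26.6% and 28.2% of all genes. The median log2 fold change of the members was 0.29, from -0.27 to 1.52, and that of all genes -0.00032. Without knockout replicate 3 the members' median was 0.14. With the presence of Y-linked counts in the fit it was 0.025, where the genotype term rests on knockout replicate 2 alone.

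**Figure D1:**
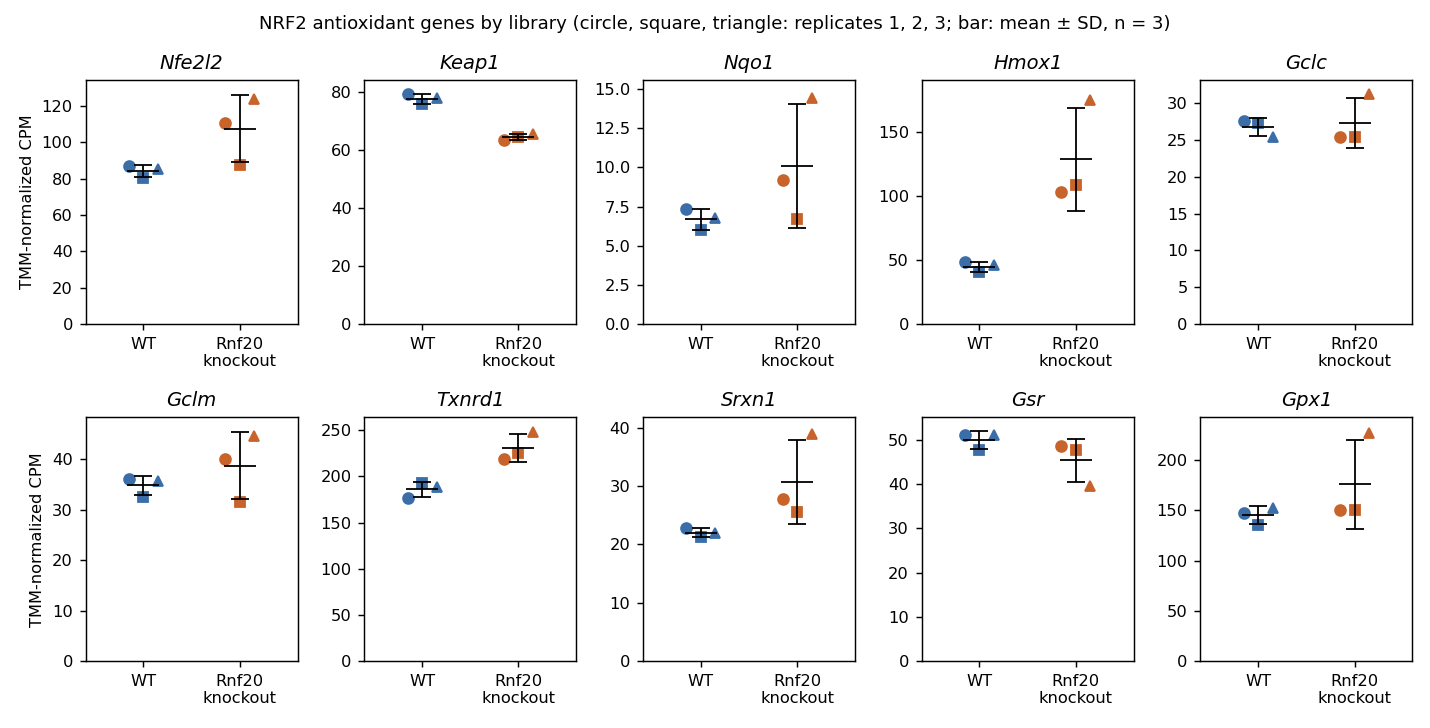
CPM of each of the 10 genes in the 3 WT and 3 knockout libraries, 1 point per library with the mean and SD of each genotype. Hmox1 lies at 40.5 to 48.3 CPM in WT and at 102.9 to 175.0 CPM in the knockout, whereas Gclc, Gclm, Gsr, Gpx1 and Nqo1 overlap between the genotypes.

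Hmox1 encodes heme oxygenase-1, the inducible enzyme that opens heme to biliverdin, carbon monoxide and iron, and it lies on the plus strand of chromosome 8 (GRCm38, chr8:75093621-75100589). It was at 48.3, 40.5 and 45.7 CPM in WT and at 102.9, 108.3 and 175.0 CPM in the knockout. All 3 knockout libraries lay above all WT libraries, and replicate 3 was the highest of them. The mean of 128.7 ± 40.2 CPM (SD, n = 3) was 2.87-fold that of WT, 44.8 ± 3.98 CPM (SD, n = 3), a log2 fold change of 1.52 (SE 0.214, adjusted p = 0.00553, edgeR quasi-likelihood test). Without knockout replicate 3 the log2 fold change was 1.24 (adjusted p = 1.74e-06). Hmox1 passed whichever library was left out, with a log2 fold change from 1.24 to 1.66, but under the study's thresholds among these fits it was called only without knockout replicate 3. When the fit also held whether a library had Y-linked counts, its genotype term rested on knockout replicate 2 alone against the WT libraries. The log2 fold change there was 1.27 for Hmox1, 0.27 for Txnrd1 and -0.26 for Keap1, and no p-value is read from it.

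Macrophages express Hmox1 strongly, so the levels of macrophage markers were read beside it. The sum of 13 markers was 65.5, 141.3 and 117.1 CPM in WT and 109.8, 68.6 and 260.4 CPM in the knockout. Of these markers 8 of 13 were highest in knockout replicate 3, Adgre1 at 31.9 CPM and Lyz2 at 158.6 CPM among them. The share of all genes highest there was not computed. Lyz2 made up most of the sum in that library. Mrc1 at 1.91 CPM and C1qa at 3.7 CPM were at their lowest of the 6 libraries there. Cd68, C1qb and C1qc lay inside the WT range there, and none of the 13 was absent. In knockout replicates 1 and 2 the marker sum lay within the WT range while Hmox1 lay above it in both. The part of the marker-positive RNA in the higher Hmox1 of replicate 3 was not tested. By edgeR's quasi-likelihood test 0 of the 13 markers passed, 1 had an unadjusted p under 0.05, and DESeq2 and edgeR's exact test each passed 1.

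Txnrd1 encodes the cytosolic selenoprotein thioredoxin reductase, which keeps thioredoxin reduced with NADPH. It was at 176.9, 192.4 and 188.6 CPM in WT and at 218.8, 224.9 and 248.0 CPM in the knockout, with no overlap. The rise was small, 1.24-fold, with a log2 fold change of 0.31 (SE 0.0772, adjusted p = 0.0251, edgeR quasi-likelihood test). Leaving out knockout replicate 1 or 3 kept the call, at an adjusted p of 0.0372 and 0.00355, and leaving out any other library lost it, at 0.0550 to 0.102.

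Keap1, which lies on the minus strand of chromosome 9 (chr9:21229730-21239361), was the member that fell. Its levels were 79.3, 75.7 and 77.8 CPM in WT and 63.3, 64.6 and 65.5 CPM in the knockout. Every knockout library was below every WT library, and replicate 3 was the least changed of the 3. The knockout mean was 83.1% of WT, with a log2 fold change of -0.27 (SE 0.0634, adjusted p = 0.0217, edgeR quasi-likelihood test). The call held without knockout replicate 3, at an adjusted p of 0.00321, and was lost when any other library was left out, at 0.0645 to 0.0840, and by edgeR's exact test, at 0.0609. Exons of Keap1 overlap those of Gm16754 on the opposite strand, and because the sources used here do not state whether counting used strand, reads of the pair cannot be told apart.

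Nfe2l2 itself, on the minus strand of chromosome 2 (chr2:75675513-75704641), did not pass. It was at 86.9, 80.4 and 85.3 CPM in WT and at 110.6, 87.6 and 124.0 CPM in the knockout. The genotypes did not overlap, but knockout replicate 2 was only just above the highest WT library. Its log2 fold change was 0.35 (SE 0.129, adjusted p = 0.0780, edgeR quasi-likelihood test), and of the fits with a library left out it passed in the one without knockout replicate 2, at 0.0227. By DESeq2 it passed at an adjusted p of 0.0461.

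Srxn1 encodes sulfiredoxin, which restores overoxidized peroxiredoxins. It was at 22.8, 21.3 and 21.9 CPM in WT and at 27.7, 25.5 and 38.9 CPM in the knockout, again without overlap. The log2 fold change of 0.48 (SE 0.164) missed the threshold at an adjusted p of 0.0629 by edgeR's quasi-likelihood test. It passed without knockout replicate 2, at 0.0432, and without knockout replicate 3, at 0.0214 and a log2 fold change of 0.28. It also passed by DESeq2, at an adjusted p of 0.0325, and by edgeR's exact test, at 0.0460.

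Nqo1 encodes NAD(P)H quinone dehydrogenase 1, widely used as a readout of NRF2 activity. It was the lowest of the members, at 7.32, 5.98 and 6.79 CPM in WT and at 9.16, 6.70 and 14.4 CPM in the knockout. Knockout replicate 2 lay inside the WT range and replicate 3 far above it. The log2 fold change of 0.59 had an SE of 0.282 and an adjusted p of 0.148 by edgeR's quasi-likelihood test, and was 0.25 without knockout replicate 3.

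The glutathione genes did not pass. Gclc and Gclm encode the catalytic and modifier subunits of glutamate-cysteine ligase, the rate-limiting enzyme of glutathione synthesis. Gclc was at 27.6, 27.3 and 25.4 CPM in WT and at 25.3, 25.4 and 31.2 CPM in the knockout. Its log2 fold change was 0.028 (SE 0.109, adjusted p = 0.858, edgeR quasi-likelihood test), and -0.032 with counts scaled by library size only. Gclm was at 36.0, 32.6 and 35.7 CPM in WT and at 40.1, 31.5 and 44.5 CPM in the knockout, a log2 fold change of 0.15 (SE 0.134, adjusted p = 0.399, edgeR quasi-likelihood test). Knockout replicate 2 was the lowest of all 6 libraries for Gclm and the other knockout libraries were the highest. Exons of Gclm overlap Gm17494 on the opposite strand and the pseudogene Gm6061 on the same strand, so its counts are uncertain.

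Gsr encodes glutathione reductase and Gpx1 the glutathione peroxidase that uses the reduced form against hydrogen peroxide. Gsr was at 51.2, 47.7 and 51.0 CPM in WT and at 48.6, 47.7 and 39.6 CPM in the knockout, a log2 fold change of -0.14 (SE 0.0979, adjusted p = 0.301, edgeR quasi-likelihood test). Gpx1 was at 147.2, 135.5 and 152.4 CPM in WT and at 150.3, 150.2 and 226.1 CPM in the knockout, a log2 fold change of 0.28 (SE 0.169, adjusted p = 0.243, edgeR quasi-likelihood test). In both genes knockout replicates 1 and 2 lay inside the WT range, and replicate 3 lay below it for Gsr and above it for Gpx1.

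**Figure D2:**
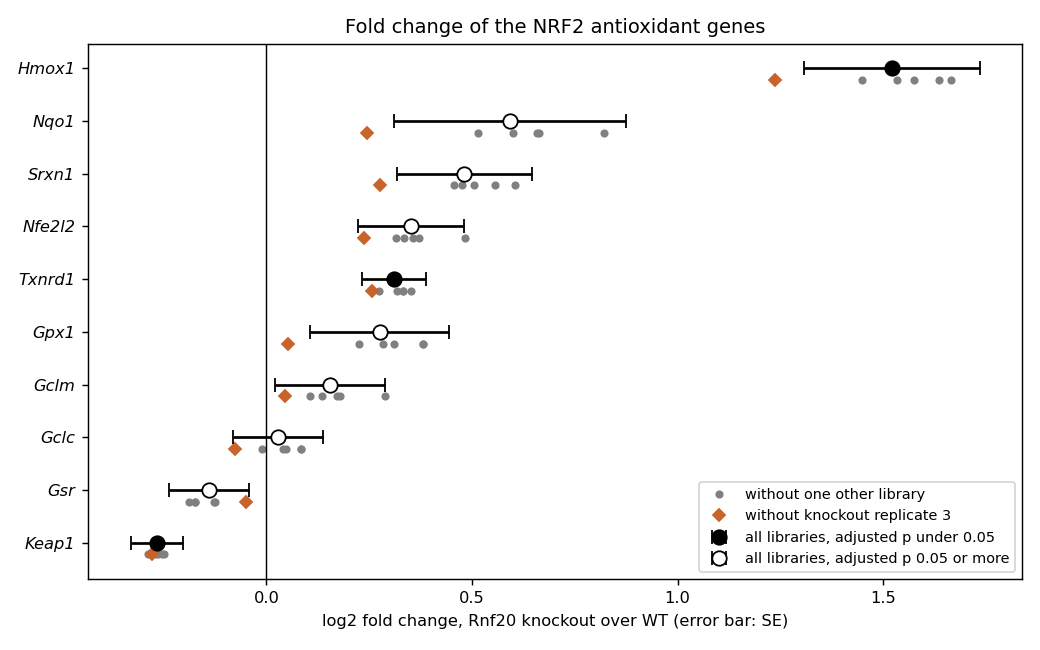
Log2 fold change of knockout over WT for the 10 genes with its SE, from the quasi-likelihood fit to 3 libraries of each genotype, filled where the adjusted p was under 0.05. Hmox1 at 1.52 stands clear of the other 9 genes, which lie between -0.27 and 0.59.

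Set against the WT mean on the log2 CPM scale, knockout replicate 3 was the farthest of the knockout libraries in 9 of 10 members, Keap1 being the exception. That library differed from the other knockout libraries over all genes, with a chi-square per gene of 92.4 and 101. The share of all genes for which it was the farthest was not computed, so the 9 of 10 is not particular to the members. The median over the members was 0.22 in knockout replicate 1, 0.028 in replicate 2 and 0.49 in replicate 3. Replicate 2 was within 0.1 of the WT mean for Nfe2l2, Nqo1, Gclc, Gsr and Gpx1, and Hmox1 at 1.27 was its most changed member, followed by Txnrd1 at 0.27. In replicate 3 Nqo1 was at 1.10, Srxn1 at 0.82 and Gpx1 at 0.64. The same library had the highest macrophage marker sum, most of it from Lyz2, and the lowest fibroblast marker sum. The part of either in these values was not tested.

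**Figure D3:**
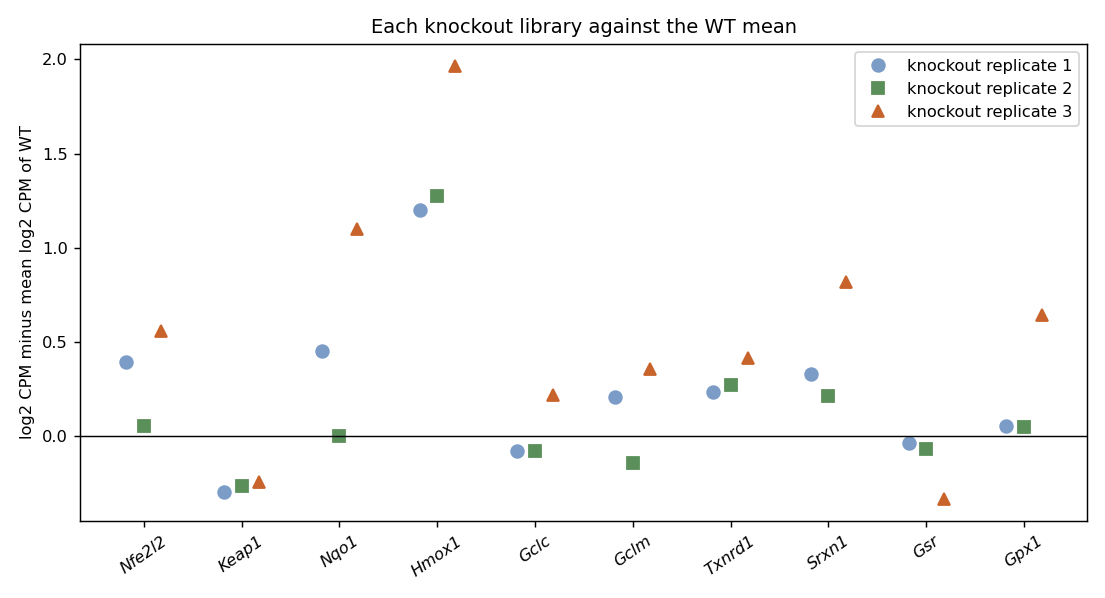
Log2 CPM of each knockout library minus the mean log2 CPM of the 3 WT libraries, for the 10 genes, with 1 symbol per knockout replicate. Replicate 3 is the farthest from 0 for 9 of 10 genes, a count that was not made over all genes. Hmox1 is above 1 in all 3 libraries and Keap1 between -0.29 and -0.24.

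Levels were compared between genes per length, as FPKM. In WT the order was Gpx1 at a mean of 205.9 FPKM, Txnrd1 at 59.4, Nfe2l2 at 35.9, Hmox1 at 30.2, Keap1 at 25.4, Gsr at 22.9, Gclm at 14.3, Srxn1 at 8.61, Gclc at 8.02 and Nqo1 at 5.31 FPKM, and no neighbours in this order overlapped over the 3 WT libraries. In the knockout Hmox1 moved from rank 4 to rank 2, at a mean of 84.7 FPKM and 67.8 to 115.9 FPKM over the libraries, and overlapped Txnrd1 at 69.8 to 81.2 FPKM. Keap1 and Gsr had the same knockout mean, 21.1 FPKM, and their libraries overlapped. On this scale Gclm did not overlap, at 13.1, 14.9 and 14.8 FPKM in WT and at 18.6, 15.8 and 19.2 FPKM in the knockout, whereas its CPM did.

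**Figure D4:**
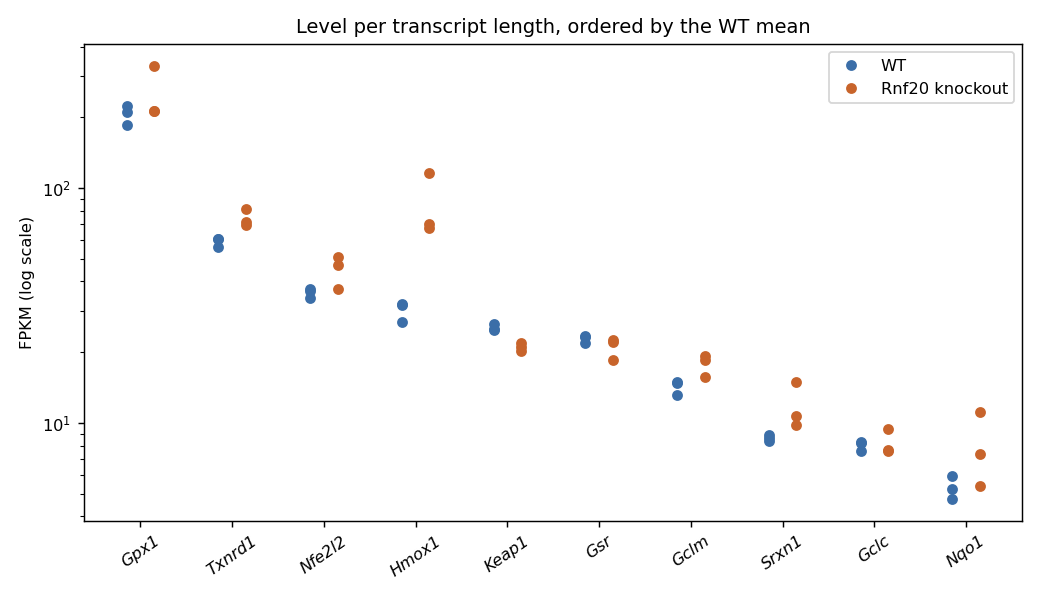
FPKM of the 10 genes on a log axis, ordered by the WT mean, with 1 point per library. Hmox1 lies between 27.0 and 32.0 FPKM in WT and between 67.8 and 115.9 FPKM in the knockout. By the mean Gpx1 is the highest and Nqo1 the lowest gene in both genotypes. In knockout replicate 3, however, Nqo1 at 11.1 FPKM lies above Gclc at 9.41 FPKM.

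The likeness of members was measured over the 6 libraries as the root mean square difference of log2 CPM, each gene set to its WT mean. Nfe2l2 and Srxn1 were each the nearest member to the other, at 0.127, and so were Keap1 and Gsr, at 0.138. Hmox1 was far from every member, its nearest being Nqo1 at 0.697.

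Of 10 other genes that control NRF2, 5 rose, 5 did not pass and 0 fell, against 16.4% of all genes higher and 16.6% lower, with no gene lower at an unadjusted p under 0.05 by edgeR's quasi-likelihood test or passing lower by DESeq2 or the exact test, and the median log2 fold change was 0.21. Maff and Mafk, small MAF partners of NRF2, rose by 1.12 (SE 0.350, adjusted p = 0.0481, edgeR quasi-likelihood test) and 0.98 (SE 0.209, adjusted p = 0.0162) on the log2 scale. Sqstm1, which encodes p62, an autophagy receptor that captures KEAP1, rose by 0.80 (SE 0.194, adjusted p = 0.0229, edgeR quasi-likelihood test). It was at 265.6, 250.8 and 276.0 CPM in WT and at 384.4, 380.2 and 617.0 CPM in the knockout. Nfe2l1, a relative of NRF2 that drives proteasome genes, rose by 0.65 and Cul3 by 0.21, whereas Bach1, a repressor at ARE that competes with NRF2, was at -0.09 (adjusted p = 0.338, edgeR quasi-likelihood test). Without knockout replicate 3 the values were 0.62 for Maff, 0.69 for Mafk and 0.54 for Sqstm1. Of these 10 genes 0 passed when any 1 of the WT libraries was left out, where 4 had an unadjusted p under 0.05 in each fit, and 7 passed without knockout replicate 3. Of all genes 14.3%, 11.9% and 10.3% passed without WT replicate 1, 2 and 3, and 48.1% without knockout replicate 3.

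Of 20 further NRF2 target genes, Ugdh was not found by symbol in the count table and 19 were tested. Of these 7 rose and 2 fell, against 16.4% of all genes higher and 16.6% lower, and the list median was 0.46. Me1, malic enzyme, which makes NADPH, was at 97.1, 96.9 and 100.4 CPM in WT and at 148.3, 141.9 and 168.5 CPM in the knockout, and rose by 0.64 (SE 0.083, adjusted p = 0.00443, edgeR quasi-likelihood test). Esd rose by 0.96 and Cbr3, a carbonyl reductase, by 0.70, at adjusted p = 0.0496 and 0.0414 by the same test, and without knockout replicate 3 Esd was at 0.49. Both lost their calls when any 1 of the WT libraries was left out, at adjusted p = 0.136 to 0.142 for Esd and 0.0947 to 0.131 for Cbr3. Ephx1, Abcc1, Abcc4 and Ftl1 also rose. The genes that fell were Tkt, transketolase of the pentose phosphate pathway, by 0.47 (adjusted p = 0.00641, edgeR quasi-likelihood test), and Blvrb, biliverdin reductase B, by 1.01 (adjusted p = 0.00805), the one gene of these lists beside Gsto1 and Gstt1 that met the study's thresholds. Fth1, ferritin heavy chain, was at 299.6, 305.8 and 307.7 CPM in WT and at 450.1, 413.3 and 1311.8 CPM in the knockout, and did not pass (log2 fold change 1.25, adjusted p = 0.0671, edgeR quasi-likelihood test). Without knockout replicate 3 Fth1 was at 0.51 and passed (adjusted p = 5.10e-05), and it also passed without knockout replicate 1 or 2, at 0.0489 and 0.0431. G6pdx, Pgd, Taldo1, Txn1 and Slc7a11, all known as NRF2 targets, did not pass. The number that passed was 4 without WT replicate 2, 5 without WT replicate 3 and 12 without knockout replicate 3. Shares over all genes in those fits were 11.9%, 10.3% and 48.1%.

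Among 18 other glutathione and peroxide enzymes 3 rose and 1 fell, against 16.4% of all genes higher and 16.6% lower, and the list median was 0.21. Gss, glutathione synthetase, which completes glutathione after the ligase formed by Gclc and Gclm, rose with the smallest SE of these 18. It was at 30.7, 30.2 and 31.6 CPM in WT and at 57.3, 58.2 and 54.7 CPM in the knockout, a log2 fold change of 0.88 (SE 0.0685, adjusted p = 0.00178, edgeR quasi-likelihood test), and it passed without each of the 6 libraries. Sod3, the extracellular superoxide dismutase, was at 19.8, 17.3 and 19.3 CPM in WT and at 65.9, 66.1 and 347.4 CPM in the knockout, a log2 fold change of 3.09 (SE 0.702, adjusted p = 0.0191, edgeR quasi-likelihood test) that was 1.81 without knockout replicate 3. Gpx8 rose by 0.37. Prdx4, the peroxiredoxin of the endoplasmic reticulum, fell by 0.72 (SE 0.116, adjusted p = 0.00739, edgeR quasi-likelihood test). Without any 1 of the WT libraries 2 of the 18 passed, Sod3 and Gpx8 not among them, and without knockout replicate 3 the number was 8. Over all genes the share was 10.3% to 14.3% without a WT library and 48.1% without knockout replicate 3.

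Of 8 glutathione S-transferases 2 rose and 2 fell, against 16.4% of all genes higher and 16.6% lower, and the list median was 0.011. Gsto1 rose by 1.30 (SE 0.137, adjusted p = 0.00321, edgeR quasi-likelihood test), from 145.1, 148.1 and 154.0 CPM in WT to 343.9, 310.7 and 444.7 CPM in the knockout. Mgst3 rose by 0.54, whereas Gstt1 fell by 1.36 (SE 0.208, adjusted p = 0.00667, edgeR quasi-likelihood test) and Gstk1 by 0.76, the last of which passed only without knockout replicate 3 when a library was left out.

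Of 7 genes of heme and iron handling 3 rose and 1 fell, against 16.4% of all genes higher and 16.6% lower, and the list median was 0.19. Those that rose were Slc48a1, a heme transporter, by 0.82, Tfrc, the transferrin receptor, by 0.49, and Alas1, the first enzyme of heme synthesis, by 0.40, at adjusted p = 0.0469, 0.00972 and 0.0349 by edgeR's quasi-likelihood test. Blvra, biliverdin reductase A, which takes the biliverdin made by heme oxygenase on to bilirubin, fell from 22.7, 24.8 and 22.9 CPM in WT to 15.9, 16.5 and 14.4 CPM in the knockout (log2 fold change -0.59, SE 0.095, adjusted p = 0.00755, edgeR quasi-likelihood test). Hmox2, the constitutive heme oxygenase, was at 0.035 (adjusted p = 0.779, edgeR quasi-likelihood test). Without WT replicate 1, 2 or 3 the number of the 7 that passed was 2, 1 and 1, against 14.3%, 11.9% and 10.3% of all genes. Slc48a1 was at 0.44 without knockout replicate 3.

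**Figure D5:**
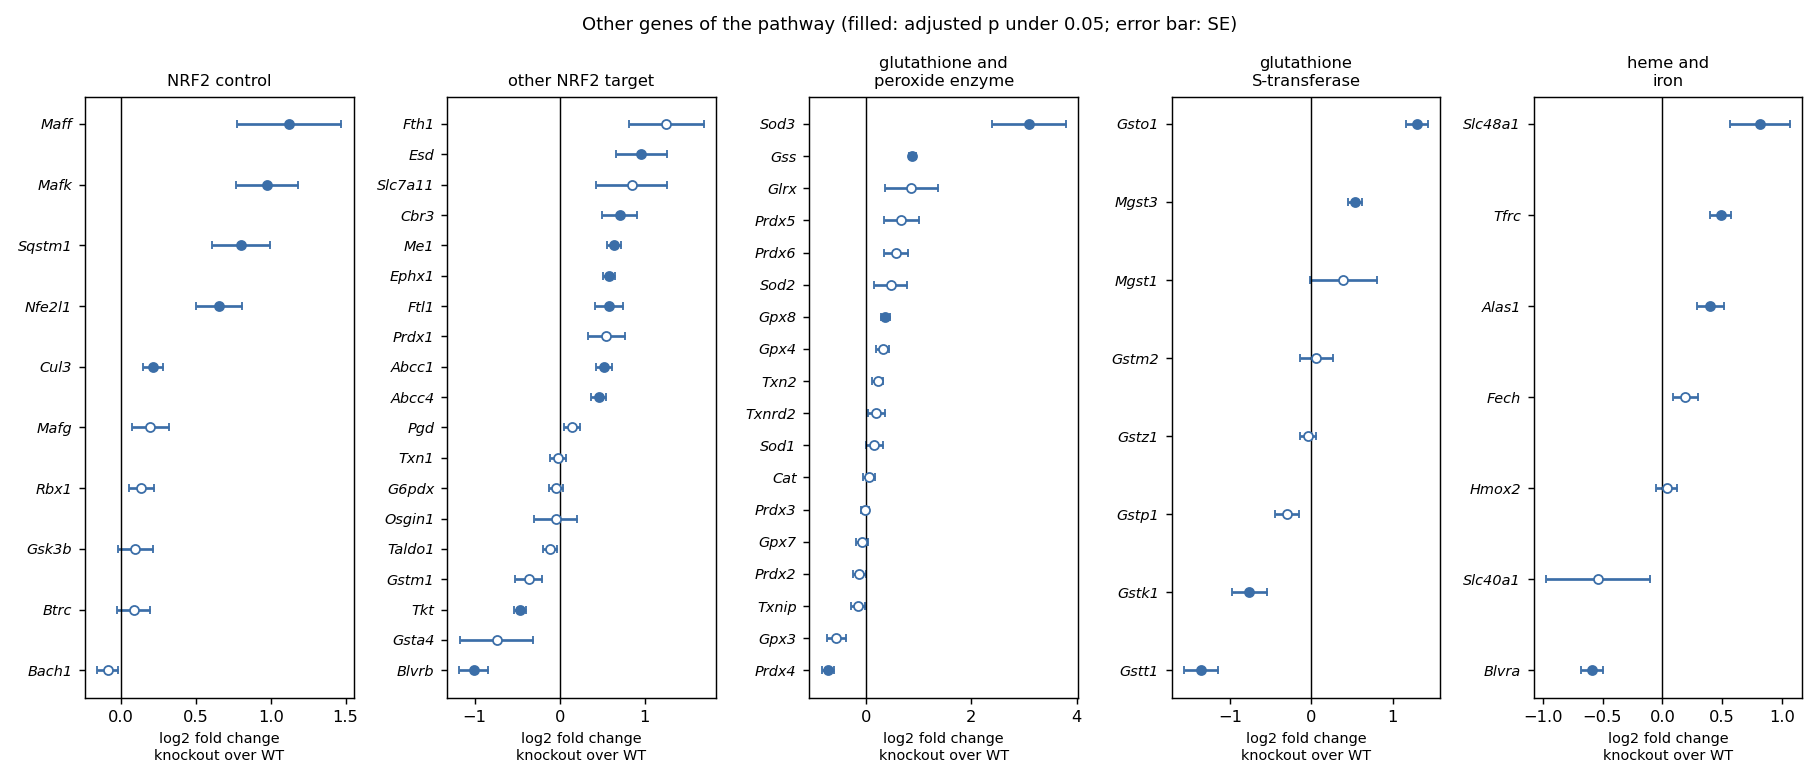
Log2 fold change of knockout over WT with its SE for the other genes of the 5 lists, 3 libraries per genotype, filled where the adjusted p was under 0.05, with a separate horizontal scale for each panel. Sod3 at 3.09 and Gsto1 at 1.30 are the highest called values of their panels, and Gstt1 at -1.36 and Blvrb at -1.01 the lowest of theirs.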

How the data were processed

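RNA-seq of 3 WT and 3 Rnf20 knockout MEF libraries on day 3 of reprogramming was analysed, grouped by the sample labels. Libraries were poly(A)-selected and stranded. Per the submitters' processing notes and the methods, the authors aligned reads to GRCm38/mm10 with HISAT2 2.1.0. The authors deposited raw counts per gene and FPKM values from Cufflinks 2.1.1, the latter for 12633 genes. The counting program is not given in the sources used here. The deposited log2 fold changes and p-values (FDR) of the authors' own comparison were not used.

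Counts were filtered with filterByExpr, normalized by TMM and compared with the quasi-likelihood test of edgeR 4.0.16 in R 4.3.3, without covariates, with Benjamini-Hochberg adjustment over 13386 genes (common dispersion 0.0353). SEs were derived from the F statistic (size of the log2 fold change over the root of F). Log2 CPM used a prior count of 2. The test was tested on simulated data. Positions and overlaps came from GENCODE M21 (GRCm38), matched for all 10 members and 13086 genes tested. Floors of 3 counts equal 0.142 to 0.143 CPM and cover counting error only. Members and lists were chosen with earlier results of these data known. Genes named beside the members are the 3 largest changes in each direction that passed in each list, and any other list or marker gene was named after its values were seen. Replicate numbers did not pair the libraries (correlations of same-numbered libraries -0.066, 0.037 and 0.011).

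The alternatives tried were library size only, RLE size factors, other count filters, DESeq2 1.42.0, edgeR's exact test, a replicate block, a term for Y-linked gene counts, limma 3.58.1 on log2(FPKM + 1) and log2(FPKM + 0.1), an adjusted p of 0.05 in place of 0.01, no FPKM limit, and each library left out.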

Additional observations from a re-analysis of the deposited data

How the results depend on the processing

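Each member's log2 fold change was recomputed under 16 alternatives. Hmox1 passed in 15, Txnrd1 in 10, Keap1 in 8, Srxn1 in 4 and Nfe2l2 in 2, and Nqo1, Gclc, Gclm, Gsr and Gpx1 in none. The direction was kept by all members in all 16 except Gclc, which was -0.032 with library size only, -0.077 with the term for Y-linked counts and between -0.077 and 0.085 with a library left out, and, with that term, Nqo1 at -0.00020 and Gclm at -0.14. With 3 members passing in the comparison reported (2 higher and 1 lower), DESeq2 passed 5 (4 higher) and edgeR's exact test 3 higher and 0 lower, with 1 lower at an unadjusted p under 0.05. Of all genes 33% passed as reported, 38.1% by DESeq2 and 33.2% by the exact test. With the term for Y-linked counts the median of the members was 0.025 and Hmox1 was at 1.27. Because such counts were not present in knockout replicates 1 and 3, the genotype effect of this fit rests on knockout replicate 2 alone. The term also takes a residual degree of freedom and is partly confounded with genotype. This fit is 1 of the 16 alternatives above, and what passed in it is not read further. With the replicate number as a block 1 member passed (1 higher, 0 lower, 5 at an unadjusted p under 0.05) and 0 by the study's thresholds, which under the block called 0 of all genes. At an adjusted p under 0.05 the block passed 21.5% of all genes. WT replicate 2 correlated best with knockout replicate 1, so numbers gave no hint of pairing. With a library left out, 1 to 4 members passed, 1 to 3 higher and 0 to 1 lower, and 0 to 1 by the study's thresholds. Of all genes 10.3% passed without WT replicate 3, the lowest share of these fits, and 48.1% without knockout replicate 3, the highest.

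The list of genes that control NRF2 passed 5 as reported and 3 with library size only, with no filter, with the block and with each FPKM scale. Of all genes 33% passed as reported, 33.1% with library size only, 24% with no filter and 21.5% with the block. The share was 28.8% and 28.3% on the FPKM scales. The heme and iron list passed 4 as reported and 2 with library size only, the block and each FPKM scale. The glutathione and peroxide list passed 4 as reported and 7 by DESeq2. Counts under the term for Y-linked counts are left out, because its genotype effect rests on knockout replicate 2 alone. With a library left out the control list passed 0 to 7, the other targets 4 to 12, the glutathione and peroxide list 2 to 8 and the heme and iron list 1 to 4. Of all genes 10.3% to 48.1% passed in these fits. The cause of these moves was not tested.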
